A study of Mus musculus with 8 samples.

Results

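The genes described here encode the metalloproteases of the extracellular matrix and their tissue inhibitors. They are the protein-coding mouse genes on chromosomes 1 to 19 whose symbols begin with Adam, Adamts, Mmp or Timp followed by a digit. RefSeq held 79 of them among 34324 protein-coding and long noncoding RNA genes: 34 ADAM, 19 ADAMTS, 23 MMP and 3 TIMP genes. Their chromatin was measured by ATAC-seq, which reads open DNA through insertions of a transposase, in satellite cells from the hindlimb of C57BL/6 mice. Satellite cells are the stem cells of skeletal muscle.

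The 8 libraries formed 4 groups of 2. LncMyod siRNA cells were cultured satellite cells that had received siRNA against LncMyod, a long noncoding RNA transcribed near Myod1, for 48 h before harvest. Control siRNA cells were cultured towards differentiation with control siRNA, for a time that the labels do not give. ASC were untreated satellite cells isolated 2.5 days after injury, and QSC were untreated satellite cells taken directly from muscle. The strain was the same in all groups; sex and age were not stated. Whether the 2 replicates of a group are separate animals or separate cultures is not recorded, and p-values therefore measure only how far these libraries spread, which may be technical. Control siRNA cells differ from ASC in injury, culture and siRNA, and these cannot be told apart.

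As background, ADAM proteins are membrane-anchored proteases that release growth factors, receptors and Notch ligands from the cell surface, and several members have lost the active site or work in sperm. ADAMTS proteins are secreted and cut proteoglycans such as versican and aggrecan or the N-propeptides of procollagens. MMP proteins cut collagens, gelatin and laminins, and TIMP proteins bind and inhibit them. In muscle repair these enzymes remodel the matrix around the fibre in which satellite cells lie and migrate.

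Promoter sequences of 3 members show the range of promoter states found in these genes, all from RefSeq, build GRCm38.p6, 250 bases before to 50 bases after a start site. Adamts18 had a promoter peak in 6 libraries and none in either QSC library, Mmp14 had one in all 8, and Mmp13 had one in none. Capitals mark matches to an E-box (CANNTG), the AP-1 site (TGANTCA) or the Runx site (TGTGGT) on either strand.
Adamts18 promoter, chr8:113848790-113849089, minus strand: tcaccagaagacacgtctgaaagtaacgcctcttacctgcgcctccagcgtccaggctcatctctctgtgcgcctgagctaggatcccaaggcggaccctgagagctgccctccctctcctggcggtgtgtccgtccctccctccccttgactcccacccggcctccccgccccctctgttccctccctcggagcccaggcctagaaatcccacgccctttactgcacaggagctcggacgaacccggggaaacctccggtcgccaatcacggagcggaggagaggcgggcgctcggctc
Mmp14 promoter, chr14:54431348-54431647, plus strand: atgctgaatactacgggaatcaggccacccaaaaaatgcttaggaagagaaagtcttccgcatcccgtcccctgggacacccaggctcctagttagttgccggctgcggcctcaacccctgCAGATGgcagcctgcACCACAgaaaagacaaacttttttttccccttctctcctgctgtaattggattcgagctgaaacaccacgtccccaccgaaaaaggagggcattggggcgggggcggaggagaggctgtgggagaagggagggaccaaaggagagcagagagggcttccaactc
Mmp13 promoter, chr9:7272264-7272563, plus strand: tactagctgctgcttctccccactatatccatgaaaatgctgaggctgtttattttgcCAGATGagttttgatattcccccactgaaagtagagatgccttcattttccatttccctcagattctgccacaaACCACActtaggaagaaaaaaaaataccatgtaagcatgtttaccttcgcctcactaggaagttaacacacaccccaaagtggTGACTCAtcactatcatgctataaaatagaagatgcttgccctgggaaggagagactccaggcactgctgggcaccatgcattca

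The Adamts18 window held no match to these motifs or to the Tead letters GGAATG. Mmp14 held an E-box that begins 129 bases before the start site and a Runx match 114 bases before it. Mmp13, a collagenase gene, held an E-box 192 bases, a Runx match 118 bases and an AP-1 match 35 bases before the start site. A match describes letters in the window and shows no bound factor. The E-box letters overlap no AP-1 or Runx match here, but CANNTG also holds CAGCTG, which was counted separately.

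In all, 8 of the windows with an AP-1 match and no peak in any library lie in the Mmp cluster on chromosome 9. They are shown with 12 bases on each side, and capitals mark TGANTCA read on the strand of the gene.
Mmp13, chr9:7272467-7272497, plus strand: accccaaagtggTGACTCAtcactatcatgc
Mmp12, chr9:7347318-7347348, plus strand: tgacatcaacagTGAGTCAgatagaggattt
Mmp1b, chr9:7388101-7388131, minus strand: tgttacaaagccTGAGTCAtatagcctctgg
Mmp3, chr9:7445764-7445794, plus strand: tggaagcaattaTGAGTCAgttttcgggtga
Mmp1a, chr9:7464056-7464086, plus strand: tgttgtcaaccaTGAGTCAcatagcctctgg
Mmp10, chr9:7502267-7502297, plus strand: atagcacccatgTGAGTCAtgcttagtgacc
Mmp20, chr9:7628124-7628154, plus strand: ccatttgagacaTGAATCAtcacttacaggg
Mmp7, chr9:7692015-7692045, plus strand: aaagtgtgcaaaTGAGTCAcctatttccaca

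The match stood between 35 bases (Mmp13) and 95 bases (Mmp20) before the start site. The cluster spans 427.1 kb (chromosome 9, 7272514 to 7699585) and holds 10 members, the collagenase genes Mmp13, Mmp8, Mmp1a and Mmp1b, the stromelysin genes Mmp3 and Mmp10, the macrophage elastase gene Mmp12, the matrilysin gene Mmp7, the enamelysin gene Mmp20, and Mmp27. None of its 10 promoters held a peak in any library.

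Of 49 members with a promoter entry, 22 (44.9%) held a promoter peak in all 8 libraries and 21 (42.9%) in none, against 57.5% and 32.0% of 17273 protein-coding genes. The other 6 were Adamts18 (6 libraries), Mmp24 (7), Adam8 (2), Adam1b (1), Adamts13 (1) and Mmp21 (1). Of the windows of members, counting several start sites per gene, the 24 with a peak in all 8 libraries had a median GC content of 66.2% (55.7% to 77.3%), and the 24 with no peak 40.3% (35.3% to 53.3%). Over all protein-coding windows these medians were 62.7% and 46.0%. The AP-1 letters stood in 13 of 54 member windows (24.1%), against 7.04% of 21044 protein-coding windows. They stood in 11 of the 24 windows without a peak (45.8%), against 10.7% of all windows without one. The E-box letters were in 74.1% of member windows against 69.0% of all, CAGCTG in 16.7% against 15.7%, the Runx letters in 22.2% against 14.8% and the Tead letters in 5.56% against 13.5%.

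**Figure D1:**
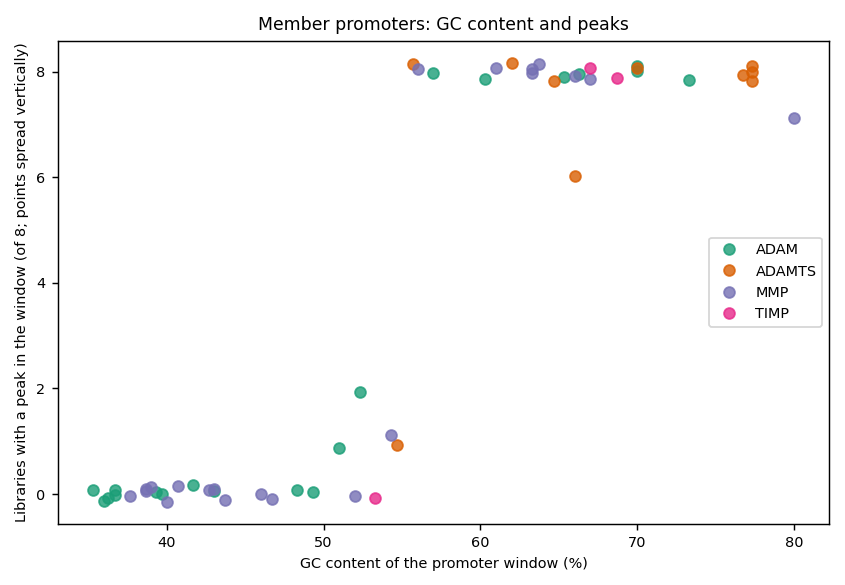
Promoter windows of the members, with GC content (%) on the horizontal axis and the number of libraries with a peak in the window (of 8) on the vertical axis. Points are windows, coloured by family and spread slightly in the vertical direction. Windows with a peak in all 8 libraries lie at a GC content of 55.7% or more and windows with none at 53.3% or less.

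A locus was the gene body and 10 kb beyond each end. Its covered length is the number of base pairs under peaks, scaled to the total covered length of the library. The lists hold no read counts, so depth is unknown, and a missing peak does not show closed chromatin. Peaks of all libraries that overlapped were merged into regions, and a library held a region that any of its peaks touched. Of the 79 members, 55 had at least 200 covered bp in 2 or more libraries and were tested. No peak was found in any library at 22 (27.8%), against 16.3% of all protein-coding genes. Those 22 were 14 ADAM genes, among them the lymphocyte gene Adam28 and 13 of the mostly testis-expressed group, and 8 MMP genes, including all 4 collagenase genes. Adam30 and Mmp7 had a peak in 1 library and were not tested. All 19 ADAMTS and all 3 TIMP loci were tested.

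Neighbouring loci share peaks. The loci of 17 members overlap in 10 pairs, most of them in the Adam18, Adam3, Adam5, Adam32 and Adam9 row on chromosome 8 and in the Mmp cluster. The body of another protein-coding gene reaches into 36 of the 55 tested loci, and a median of 71.3% of a locus's covered length lay in the member's own body. Adam12 (chromosome 7, 133883199 to 134225097), Adam19 and Adamts17 were among the loci with the most covered sequence. Adam12, known as meltrin alpha and linked to myoblast fusion, carried 12310.0 and 10651 scaled bp in LncMyod siRNA cells, 11245 and 11570.2 in control siRNA cells, 12667 and 13616 in ASC, and 16027 and 14935 in QSC.

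**Figure D2:**
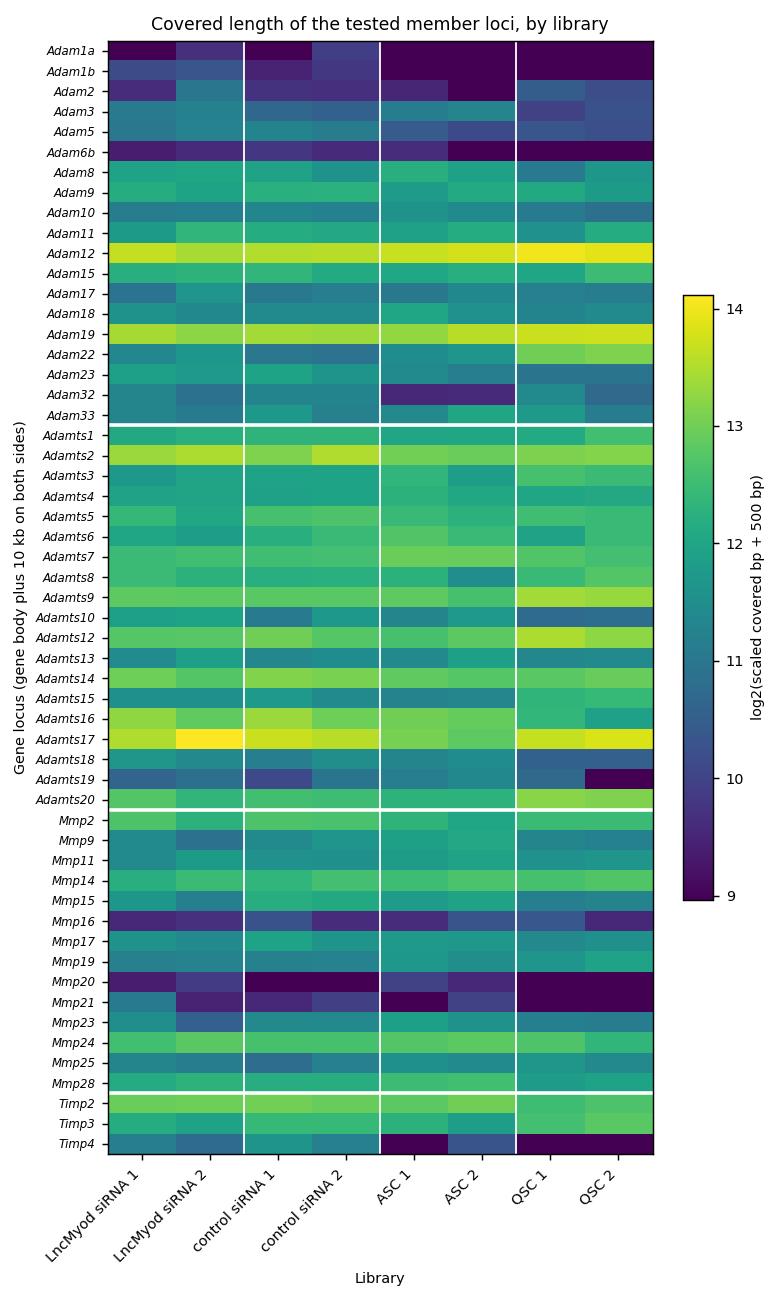
Covered length of the 55 tested loci, with one row per gene (grouped as ADAM, ADAMTS, MMP and TIMP) and one column per library. Colour is log2(scaled covered bp + 500 bp), from dark (no peak) to yellow. Adam12 and Adam19 are bright in every library, while Adam22 and Adamts15 are brighter in QSC than elsewhere.

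Between 59666 and 95449 peaks were listed per library, covering 42.4 to 64.0 Mb. The Jaccard index (shared covered length over joint covered length) was, for libraries of a group, 0.523 to 0.694 over the genome and 0.550 to 0.716 within the member loci. The LncMyod siRNA pair stood apart, since LncMyod siRNA replicate 1 had an index of 0.677 with each control siRNA library within the member loci and only 0.550 with LncMyod siRNA replicate 2. None of the 10 satellite cell or myoblast marker loci, such as Pax7 and Myf5, was without peaks in any group. Covered length at 12 leukocyte marker loci summed to 19.9 ± 5.10 kb in LncMyod siRNA cells, 20.3 ± 0.381 kb in control siRNA cells, 14.5 ± 0.152 kb in ASC and 9.02 ± 0.617 kb (SD, n = 2 in each group) in QSC. Of these loci 1 was at 0 in LncMyod siRNA cells (Ptprc), 2 in control siRNA cells (Lyz2 and Adgre1), 3 in ASC (also C1qb) and 6 in QSC (also Ptprc, Laptm5 and Itgam). In a bulk assay, more cells of a type and more open chromatin per cell cannot be told apart.

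ASC were set against QSC to follow the step from quiescence to activation. Genes are said to have risen or fallen where limma, fitted to log2(scaled bp + 500) over all 8 libraries, gave an adjusted p under 0.05 over the 27934 genes tested. Covered length rose at 3 of 55 members (5.45%) and fell at 7 (12.7%), against 7.56% of all tested genes higher and 5.26% lower. Adam22, Adam32, Adamts15, Adamts20, Adamts17, Adamts12 and Adamts9 fell, and Adam3, Adamts18 and Mmp28 rose. With an unadjusted p under 0.05, limma had 26 of 55 members, 47.3%, and 28.1% of all tested genes. The median log2 difference was 0.03 over the members and 0.06 over all tested genes. Over all genes, 2111 were higher and 1468 lower, but 1616 and 1726 with quantile normalization.

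The proteoglycanase genes, which cut versican and aggrecan, held 3 of the 7 members that fell. The class has 7 genes, of which 3 were lower in ASC, and the median log2 difference was −0.62. Summed over the class, covered length was 31.5 ± 2.06 kb in LncMyod siRNA cells, 32.8 ± 0.292 kb in control siRNA cells, 28.8 ± 3.08 kb in ASC (SD, n = 2) and, in QSC, 42.9 ± 1.32 kb. All 6 other libraries lay below both QSC libraries. The sum includes the 3 genes that fell, so it is no separate support for a change of the class. Marker loci of other cell types moved as well. The fibroadipogenic list had 1 of 12 loci lower in ASC, with a sum of 30.5 ± 7.09 kb in ASC and of 36.7 ± 4.37 kb in QSC, and only Lum at 0 in ASC. The mural list had 1 of 8 lower (28.9 ± 1.65 kb against 34.1 ± 0.032 kb) and the endothelial list 2 of 8 lower (22.4 ± 1.61 kb against 27.9 ± 0.981 kb), with no locus at 0 in ASC or QSC. Glial loci had 2 of 6 higher in ASC (21.1 ± 0.018 kb against 14.4 ± 0.246 kb), and leukocyte loci 5 of the 11 tested. The satellite cell or myoblast list itself had 2 of 10 lower in ASC. Their part in the results was not tested.

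Adamts15 (chromosome 9, 30899155 to 30922452) showed the largest change of these. It carried 2502 and 2500.2 scaled bp in LncMyod siRNA cells, 2880.4 and 2217 in control siRNA cells, 1982 and 2114 in ASC, and 4686 and 4973 in QSC. The QSC libraries lay above all 6 others. The log2 difference in ASC was −1.06 ± 0.14 (SE), with a limma adjusted p of 0.00635. The difference lay in one region across the gene's higher-coordinate end (30918824 to 30922908), which all 8 libraries held. Peaks covered 1376 and 1276 bp of it in ASC and 4066 and 4045 bp in QSC. The call was lost without QSC replicate 2 (log2 −1.03, adjusted p = 0.0587), with stricter peaks (−log10 q of at least 5, adjusted p = 0.145) and with the strongest 59666 peaks of each library (adjusted p = 0.144).

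Adamts20 (chromosome 15, 94268314 to 94432074) carried 6288 and 4755 scaled bp in LncMyod siRNA cells, 5549.6 and 5351 in control siRNA cells, 4556 and 4519.5 in ASC, and 8958 and 8389 in QSC. Its log2 difference in ASC was −0.86 ± 0.13 (SE), with an adjusted p of 0.0108. Adamts9 (chromosome 6, 92772699 to 92944450) carried 6853 and 5812 scaled bp in ASC and 10325 and 9673 in QSC, a log2 difference of −0.62 ± 0.11 with an adjusted p of 0.0136. QSC again lay above every other library at both loci. Each held regions found in both QSC libraries and in no other library, such as 94334108 to 94334762 and 94417685 to 94418301 in Adamts20 and 92803156 to 92804384 and 92811323 to 92812846 in Adamts9. Adamts20 kept its call in 1 of 4 fits that left out a library (adjusted p 0.0384 to 0.0788), and Adamts9 also in 1 of 4 (0.0190 to 0.0833).

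The other proteoglycanase genes were not called. Adamts1 averaged 3.64 ± 0.0216 kb in ASC libraries and 4.76 ± 1.13 kb in QSC libraries, Adamts4 4.09 ± 0.494 kb and 3.69 ± 0.137 kb, Adamts5 4.79 ± 0.478 kb and 5.25 ± 0.229 kb, and Adamts8 3.40 ± 1.46 kb and 5.69 ± 0.939 kb (SD, n = 2). Adamts8 had the largest difference of these 4, at log2 −0.71 (adjusted p = 0.112).

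Among the ADAM genes, Adam22 (chromosome 5, 8072347 to 8368312) fell. It encodes a receptor without protease activity that binds LGI proteins at synapses. It carried 2139.7 and 2742 scaled bp in LncMyod siRNA cells, 1560.4 and 1458 in control siRNA cells, 2339 and 2752 in ASC, and 7648.5 and 8460.0 in QSC. Both QSC libraries lay far above the rest. Each QSC library held 10 peaks across the locus, against 3 in each ASC library. The log2 difference was −1.49 ± 0.15 (SE) in ASC, with an adjusted p of 0.00319. With each of the 4 libraries left out in turn it ran from −1.59 to −1.39 (adjusted p 0.0156 to 0.0374), and with stricter peaks it was −1.18 (adjusted p = 0.058).

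In Adam22, 4 regions were held by both QSC libraries and by neither ASC library, the farthest centred 209044 bp from the start site. Among them were 8164585 to 8165067 and 8359097 to 8359422, which no other library held. A region of 2172 bp centred 56284 bp into the gene (8310790 to 8312961) was covered over 284 and 0 bp in ASC and 2086 and 2172 bp in QSC.

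**Figure D3:**
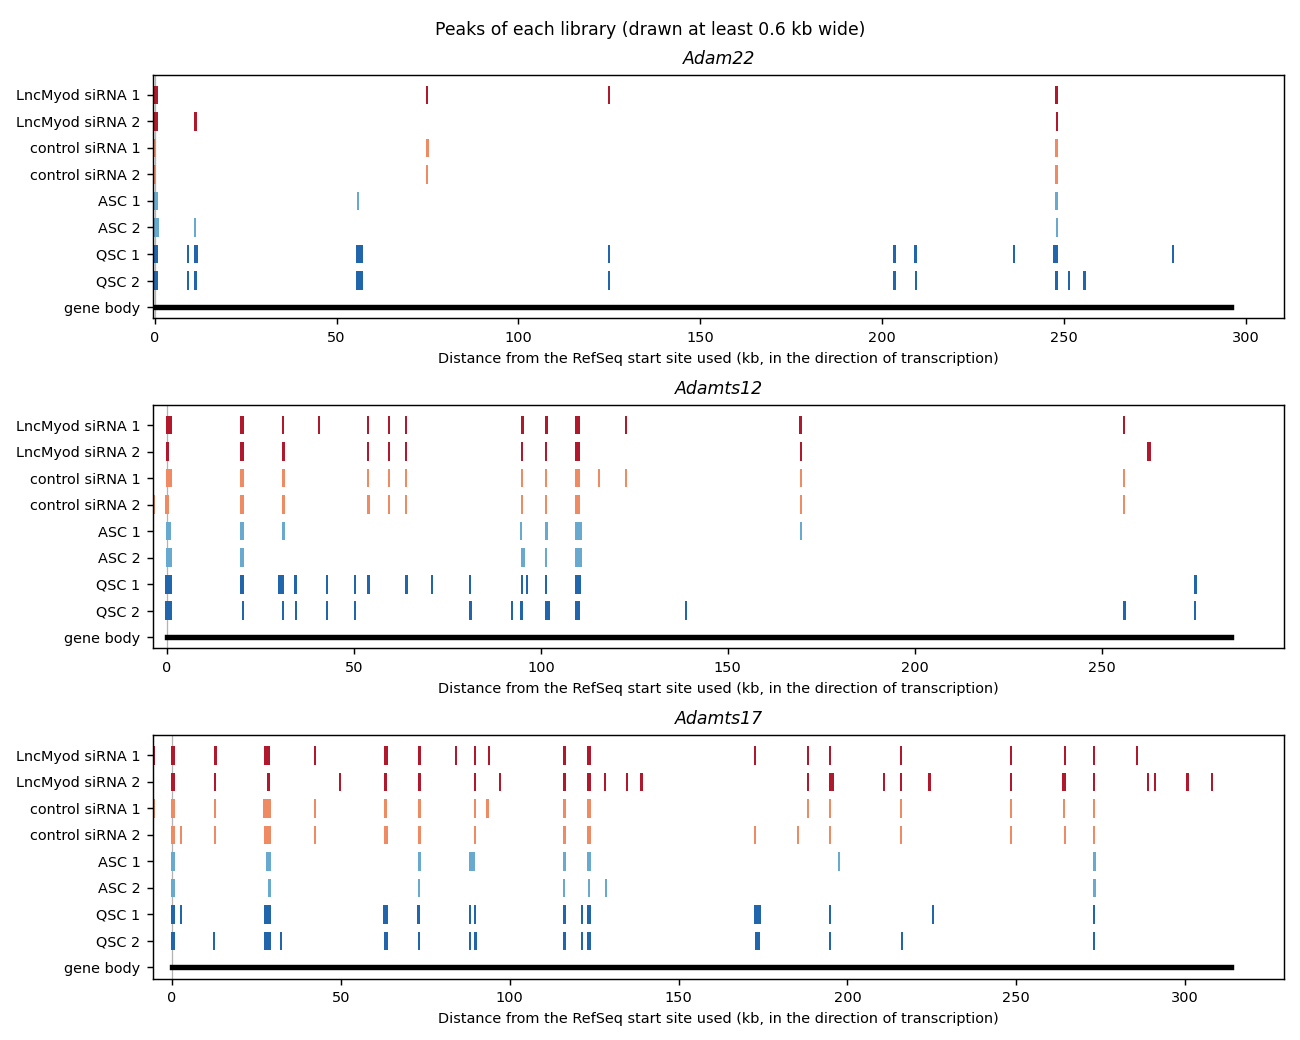
Peaks of each library across Adam22, Adamts12 and Adamts17, by distance from the start site in kb in the direction of transcription. Bars are peaks, drawn at least 0.6 kb wide, the black line is the gene body, and libraries run from LncMyod siRNA at the top to QSC at the bottom. In Adam22 the QSC rows hold 10 peaks each and the ASC rows 3, and in Adamts17 the ASC rows hold 8 and 7.

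Adamts12 and Adamts17 fell as well. Adamts12 (chromosome 15, 11064773 to 11349232), whose product cuts cartilage oligomeric matrix protein, carried 5817.5 and 6751 scaled bp in ASC and 10917 and 9228 in QSC (log2 −0.64 ± 0.14, adjusted p = 0.0271). Of its regions, 5 were found in both QSC libraries and in no other library. Adamts17 (chromosome 7, 66839699 to 67153171), linked to fibrillin fibres, carried 8022 and 6803 scaled bp in ASC, below all other libraries, and 12453 and 14061.5 in QSC (log2 −0.80 ± 0.20, adjusted p = 0.0439). LncMyod siRNA replicate 2, at 17256, was the highest of the 8 libraries. Over the alternatives that left out no replicate, Adamts12 kept its call in 4 and Adamts17 in 3. Both lost it without scaling, with the gene body alone, with no filter and in a fit on the 4 libraries. Both calls were lost whichever of the 4 libraries was left out (adjusted p 0.0607 to 0.153 for Adamts12 and 0.0818 to 0.238 for Adamts17).

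Adamts18 (chromosome 8, 113697123 to 113849343) rose. Its scaled covered length was 2816 and 2199 bp in LncMyod siRNA cells, 1816 and 2402 bp in control siRNA cells, 2048 and 2318 bp in ASC, and 1022 and 985 bp in QSC. QSC lay below every other library. The log2 difference in ASC was 0.83 ± 0.17 (SE, adjusted p = 0.0243). The promoter region (113848062 to 113849131, covering the window printed above) was held by all 6 other libraries, with 722 and 979 covered bp in ASC and 0 in both QSC libraries. The call was lost whichever of the 4 libraries was left out (adjusted p 0.0540 to 0.137) and with stricter peaks, where log2 was 0.21 (adjusted p = 0.855).

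Mmp28, the epilysin gene (chromosome 11, 83440768 to 83463040), rose to 5317 and 5502 scaled bp in ASC, against 3098 and 3456 in QSC (log2 0.65 ± 0.11, adjusted p = 0.0138). Mmp28 lost this call with the gene body alone and in a fit on the 4 libraries of the comparison. Of its covered length 42.6% lay in its own body, and the call was kept in 1 of 4 fits that left out a library (adjusted p 0.0390 to 0.0761). Adam3, expressed in testis, had 1772 and 2025 scaled bp in ASC and 504 and 732 in QSC (log2 1.11 ± 0.16, adjusted p = 0.00926), and 49.1% of the covered length lay in its own body. Adam32, also of testis, had 254 and 269 scaled bp in ASC and 2246 and 1208 in QSC (log2 −1.51 ± 0.25, adjusted p = 0.0133). The loci of Adam3 and Adam32 reach into those of Adam18, Adam5 and Adam9. Adam3 lost its call without QSC replicate 1 (adjusted p = 0.0587), with the gene body alone (log2 0.167) and with stricter peaks (log2 0.152). Adam32 lost it without ASC replicate 2 or QSC replicate 1 (adjusted p 0.0354 to 0.0707 over the 4 fits).

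Other widely studied members were not past the threshold between ASC and QSC. Mmp9, a gelatinase gene, averaged 3.54 ± 0.357 kb in ASC and 1.96 ± 0.0887 kb in QSC (adjusted p = 0.0559), and Mmp2, the other gelatinase, 4.07 ± 0.729 kb and 5.17 ± 0.0111 kb. Adam10, a sheddase of Notch and its ligands, averaged 2.44 ± 0.258 kb and 1.53 ± 0.238 kb (adjusted p = 0.0559). Timp3, an inhibitor bound to the matrix, averaged 3.83 ± 0.937 kb and 6.12 ± 0.688 kb (adjusted p = 0.0577). Mmp14, which activates pro-MMP2, averaged 5.68 ± 0.442 kb and 6.01 ± 0.3597 kb, and Timp2, its partner in that step, 7.21 ± 0.686 kb and 5.71 ± 0.463 kb. Adam9 had 3.501 ± 0.629 kb and 3.41 ± 0.613 kb, Adam17, which releases TNF, 1.87 ± 0.394 kb and 1.81 ± 0.0886 kb, and Adam19 10.5 ± 1.57 kb and 13.0 ± 0.104 kb (SD, n = 2). The largest differences short of the threshold were Adamts19 (log2 1.41, adjusted p = 0.146), Adam2 (−1.11, adjusted p = 0.142), Adamts16 (0.80, adjusted p = 0.0505) and Mmp20 (0.79, adjusted p = 0.0791).

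**Figure D4:**
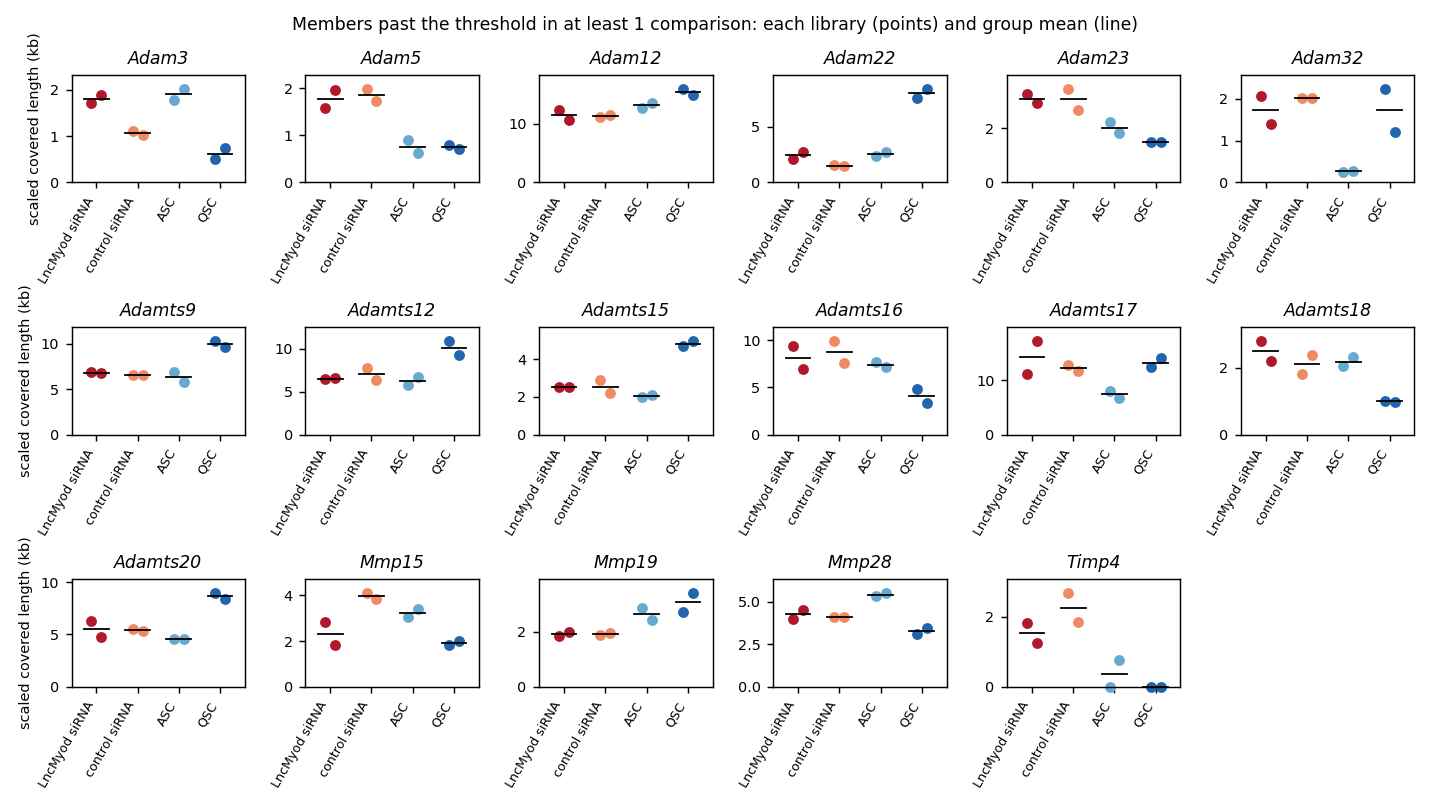
Scaled covered length (kb) of the 17 members past the threshold in at least 1 comparison, by group. Points are libraries and lines are group means of 2 libraries, with a vertical axis from 0 in each panel. In Adam22, Adamts9, Adamts12, Adamts15 and Adamts20 both QSC points lie above all others, and in Adamts18 both lie below all others.

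Region by region, 30 merged regions of the member loci were held by both ASC libraries and neither QSC library, and 48 were held by both QSC libraries and neither ASC library. These were 7.98% and 12.8% of the regions compared there, against 8.65% and 12.3% of all regions, so both shares lay near the background. None of the 48 lay within 1 kb of a RefSeq start site, against 2.44% of all QSC-specific regions. In a gene body lay 47 (97.9%, against 51.8% of all), where the choice of loci places most regions. Of the 30 ASC-specific regions, 3 (10.0%) lay within 1 kb of a start site, against 4.76% of all ASC-specific regions. Another count, in a gene body, was 26 (86.7%, against 55.0%). Of the 48, Adam12 held 6 (of 34 regions of any library in its locus), Adam19 5 (of 19) and Adamts12 5 (of 25). Adam22 held 4 (of 13), Adamts17 4 (of 37), Adamts20 4 (of 16) and Timp3 3 (of 12). Loci differ in how many regions they hold, so counts per gene do not rank the genes. With 2 libraries a group an exact permutation p cannot go under 0.333, so these counts have no test.

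Control siRNA cells were set against ASC to follow the step to cultured, differentiating cells. Covered length rose at 2 of 55 members (3.64%) and fell at none, against 2.28% of all tested genes higher and 1.72% lower. At an unadjusted p under 0.05, limma had 15 of 55 members, 27.3%, and 22.3% of all tested genes. Adam32 and Adam5 rose. Scaling moved the median of all genes, which was −0.08 with scaling and 0.04 without it, and the split over all genes was 636 higher and 480 lower with scaling and 283 and 85 without it.

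Adam32 had 2019 and 2019.6 scaled bp in control siRNA cells and 254 and 269 in ASC (log2 1.73 ± 0.25, adjusted p = 0.024). Adam5, a gene of the same row, had 1989.7 and 1729.7 scaled bp in control siRNA cells and 899.6 and 619.8 in ASC (log2 0.91 ± 0.18, adjusted p = 0.0418). Both loci share the region 24829619 to 24830812 on chromosome 8, covered over 1168 and 1092 bp in control siRNA cells and 254 and 223 bp in ASC. Both calls were lost without scaling, with the gene body alone, and whichever of the 4 libraries was left out (adjusted p 0.0610 to 0.141 for Adam32 and 0.0525 to 0.213 for Adam5).

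Timp4, an inhibitor abundant in heart, had 2686 and 1851 scaled bp in control siRNA cells and 0 and 759 in ASC (adjusted p = 0.0628). Adam3 (log2 −0.61, adjusted p = 0.0857), Adamts19 (−0.74, adjusted p = 0.473) and Mmp20 (−0.79, adjusted p = 0.119) were the lowest of the members, and none passed. In the member loci 64 regions were held by both control siRNA libraries and neither ASC library and 19 the other way. These were 15.9% and 4.73% of the regions compared there, against 15.6% and 3.52% of all regions. Of the 64, Adamts17 held 7 (of 37 regions in its locus), Adamts16 6 (of 21), Adamts2 4 (of 28) and Adamts12 4 (of 25). Adam23 held 3 (of 8), Adamts14 3 (of 26) and Adamts1 3 (of 6). Adamts7 held 4 of the 19, with 10 regions in its locus. Adamts2 and Adamts14 encode procollagen N-propeptidases, a class of 3 with none past the threshold in any comparison. Adamts2 had 8410.4 and 11159.8 scaled bp in control siRNA cells and 7858 and 7419 in ASC.

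Control siRNA cells against QSC, which shares its groups with both comparisons above, had 6 of 55 members higher (10.9%) and 6 lower (10.9%), against 9.96% and 6.96% of all tested genes. Limma had 22 of 55 members, 40.0%, and 32.0% of all tested genes at an unadjusted p under 0.05. Adam22, Adamts15, Adamts20, Adamts9, Mmp19 and Adam12 fell, and Timp4, Adamts16, Adam5, Mmp15, Adam23 and Adamts18 rose. Adam22 had the largest fall, at a log2 difference of −2.09 ± 0.15 (adjusted p = 0.00169), and kept its call in all 13 alternatives. The regions 8158947 to 8159284 and 8310790 to 8312961 of Adam22 were among 6 held by both QSC libraries and neither control siRNA library. For Adamts15, Adamts20 and Adamts9 the log2 differences were −0.81, −0.62 and −0.56 (adjusted p 0.0110, 0.0234 and 0.0153), and with stricter peaks Adamts20 and Adamts9 lost their calls, at −0.264 and −0.228. Adamts18 and Adam5 rose by 0.79 and 0.92 (adjusted p 0.0241 and 0.017). With stricter peaks Adamts18 was at 1.187 (adjusted p = 0.0909). Only 27.4% of the covered length of Adam5 lay in its own body, and with the gene body alone its difference was 0.032 (adjusted p = 0.945). Among leukocyte marker loci 6 of the 11 tested were higher in control siRNA cells, with the sums given above. The fibroadipogenic list had 2 of 12 lower, and the endothelial list 1 of 8 higher and 2 lower. The mural list (8 loci), the glial list (6) and the satellite cell or myoblast list (10) each had 1 higher and 1 lower. The part of these cell types in the results was not tested.

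Timp4 (chromosome 6, 115244444 to 115252205) had 1818 and 1244 scaled bp in LncMyod siRNA cells and 2686 and 1851 in control siRNA cells, and was listed at 0 in both QSC libraries. The log2 difference of control siRNA cells from QSC was 2.45 ± 0.42 (SE), with a limma adjusted p of 0.0111. With QSC at 0 its size depends on the bp added before the log. Over the alternatives that kept every library it went as low as 1.087. The locus met the filter of 200 bp in 2 libraries only through the cultured libraries, so this p is no independent support. The main region, 115246030 to 115247359, was covered over 1330 and 1217 bp in control siRNA cells, over 0 and 200 bp in ASC and not at all in QSC. Timp4 lies inside the body of Syn2, the synapsin II gene, and its promoter window held no peak in any library. The call was lost whichever of the 4 libraries was left out (adjusted p 0.0576 to 0.0912).

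Adamts16 (chromosome 13) had 9941.5 and 7543 scaled bp in control siRNA cells and 4792.5 and 3379.6 in QSC (log2 1.02 ± 0.21, adjusted p = 0.0205). Of its regions 6 were held by both control siRNA libraries and neither QSC library. Adam23, a relative of Adam22 without protease activity, had 3465 and 2691.5 scaled bp in control siRNA cells and 1478 in each QSC library (log2 0.85 ± 0.16, adjusted p = 0.0148). Mmp15, a membrane-type MMP, had 4097 and 3842 scaled bp in control siRNA cells and 1830.3 and 1985 in QSC (log2 0.89 ± 0.18, adjusted p = 0.019). Its call was lost with stricter peaks, at 0.108 (adjusted p = 0.675), and with the strongest 59666 peaks of each library, at 0.355 (adjusted p = 0.173). Mmp19 had 1895 and 1949 scaled bp in control siRNA cells and 2729 and 3408 in QSC (log2 −0.55 ± 0.14, adjusted p = 0.0428), though 8.2% of its covered length lay in its own body, and with the gene body alone the value was −0.931 (adjusted p = 0.118). Adam12 fell by 0.42 on the log2 scale (adjusted p = 0.0336), but the value was 0.071 with stricter peaks.

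**Figure D5:**
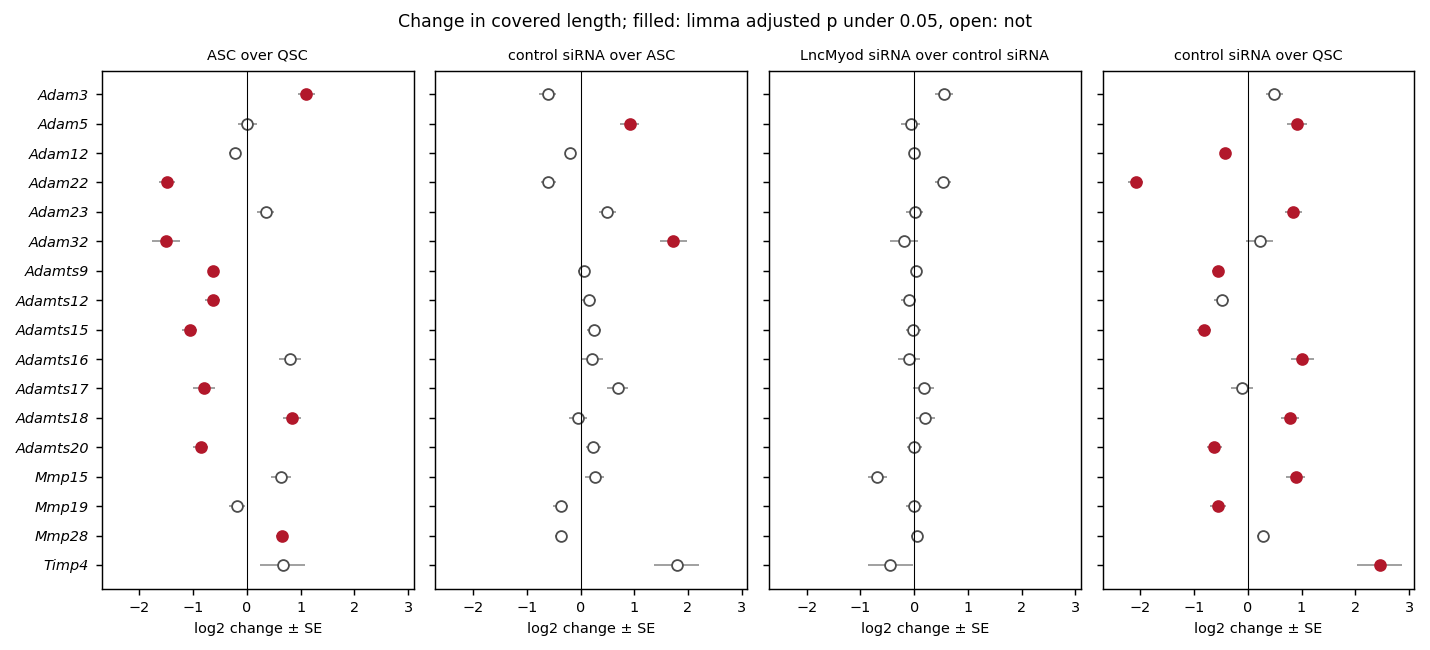
Log2 difference in covered length of the 17 members, with one panel per comparison, from ASC over QSC to control siRNA over QSC. Points are limma estimates, lines are SEs, and filled points have an adjusted p under 0.05. In the LncMyod siRNA over control siRNA panel all points are open.

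When each of the 4 libraries was left out in turn, Adam22 kept its call every time. Adam23 and Adamts15 kept theirs once (adjusted p 0.0474 to 0.0925 for Adam23 and 0.0356 to 0.0812 for Adamts15), and the other 9 calls were lost each time, with adjusted p from 0.0573 to 0.198. In the member loci 75 regions were held by both control siRNA libraries and neither QSC library, and 48 the other way. These were 17.8% and 11.4% of the regions compared there, against 19.9% and 10.4% of all regions. Of the 75, Adamts16 held 6 (of 21 regions in its locus), Adam18 4 (of 8), Adamts2 4 (of 28) and Adamts14 4 (of 26). Of the 48, Adam22 held 6 (of 13), Adam12 5 (of 34), Adamts12 5 (of 25), Adam19 4 (of 19) and Adamts20 4 (of 16).

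LncMyod siRNA cells were set against control siRNA cells to follow the loss of LncMyod. No member passed the threshold, of 55 tested, against 0.0215% of all tested genes higher and 0.0% lower. At an unadjusted p under 0.05 limma had 6 members, 10.9%, and 9.81% of all tested genes. The largest differences upward were Mmp20 (log2 0.66, adjusted p = 0.434), Adam2 (0.61, 0.725) and Adam1b (0.60, 0.376). In control siRNA cells Mmp20 was at 0 in both libraries, Adam2 had 344 and 315 scaled bp and Adam1b 209 and 398. All these lie under the 500 bp added before the log, on which the sizes depend. In LncMyod siRNA cells Adam2 had 291 and 1518 scaled bp. The largest downward were Mmp15 (−0.68, 0.302), Timp4 (−0.44, 0.807) and Adamts5 (−0.42, 0.396). Mmp15 had 2829 and 1823 scaled bp in LncMyod siRNA cells and 4097 and 3842 in control siRNA cells. Without LncMyod siRNA replicate 1 it passed the threshold, at −0.94 with an adjusted p of 0.0494, and with stricter peaks it was 0.23.

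None of the well-known members passed the threshold between the cultures. Mmp2 averaged 5.23 ± 1.13 kb in LncMyod siRNA cells and 5.96 ± 0.0763 kb in control siRNA cells (adjusted p = 0.796), and Mmp9 1.85 ± 0.585 kb and 2.51 ± 0.335 kb (0.615). Mmp14 averaged 4.75 ± 0.683 kb in LncMyod siRNA cells and 5.16 ± 0.635 kb in control siRNA cells, and Timp3 3.72 ± 0.476 kb and 4.99 ± 0.0042 kb. Adam10 averaged 1.79 ± 0.0716 kb in LncMyod siRNA cells and 1.99 ± 0.135 kb in control siRNA cells, and Adam17 2.09 ± 0.893 kb and 1.71 ± 0.142 kb (SD, n = 2).

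In the member loci 7 regions were held by both LncMyod siRNA libraries and neither control siRNA library, and 5 the other way, 1.60% and 1.14% of the regions compared there, against 2.66% and 1.72% of all regions. Those of Adam12 (134090286 to 134091705) and Adamts20 (94372294 to 94372869) were also held by both QSC libraries and by neither ASC library. The Adam12 region was covered over 776 and 1201 bp in LncMyod siRNA cells and 0 in both control siRNA libraries, with 630 and 348 bp in QSC. Those of Adam9, Adamts7 and Mmp25 were held by all ASC and QSC libraries too. Those of Adamts18 (113811604 to 113812123) and Mmp24 (155787248 to 155788133) were held by no other group. The 5 regions of control siRNA cells lay in Adamts6, Adamts7, Adamts8, Adamts9 and Mmp15.

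Taking all 522 regions of the member loci, 152 (29.1%) were held by all 8 libraries, against 25.0% of all regions. Another 30 were held by both QSC libraries and by no other library, and 6 by the ASC pair and no other. All 4 cultured libraries and no other held 22, and all libraries but QSC held 16. The shares of all regions with these patterns were not counted, so these numbers do not set the member loci apart. Regions found in 1 library only numbered 60 for LncMyod siRNA, 23 for control siRNA, 22 for QSC and 20 for ASC. LncMyod siRNA replicate 1 had the longest list, at 95449 peaks, and the part of list length was not tested.

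Genes that act beside these proteases were followed as a separate list of 38, of which 37 were tested. The alternatives were followed for the members and not for this list. In ASC against QSC, 3 rose (Acan, Vcan and Adamtsl3) and 3 fell (Pcsk5, Plg and Papln), against 7.56% and 5.26% of all tested genes. Acan and Vcan encode aggrecan and versican, substrates of the proteoglycanases. They had log2 differences of 0.99 and 0.53 (limma adjusted p 0.0454 and 0.0315). Acan had only 345 and 386 scaled bp in QSC, under the 500 bp added before the log. Bcan and Ncan of the same list were not called (adjusted p 0.0825 and 0.155). Pcsk5, a proprotein convertase gene, fell by 1.69 on the log2 scale (adjusted p = 0.00316), with 3177 and 2617 scaled bp in ASC and 10095 and 10757 in QSC. Plg, the plasminogen gene, and Papln, papilin, fell by 1.17 and 0.53, and Adamtsl3 rose by 0.87. Timp1, the inhibitor gene on chromosome X, had 2965 and 3282 scaled bp in ASC and 2776 and 3017 in QSC and was not called. Control siRNA cells against ASC had 1 gene higher, Pcsk5 (log2 0.87), and 1 lower, Spock3 (−1.05), against 2.28% and 1.72% of all tested genes. Control siRNA cells against QSC had 2 higher, Adamtsl3 (log2 1.20) and Acan (0.99). The 6 lower were Spock3 (−1.14), Serpine2 (−0.83), Pcsk5 (−0.82), Adamtsl1 (−0.71), Bmp1 (−0.62) and Papln (−0.59). Of all tested genes 9.96% were higher and 6.96% lower there. LncMyod siRNA cells against control siRNA cells had none past the limma threshold, against 0.0215% of all tested genes higher and 0.0% lower.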

How the data were processed

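The deposited files were 8 lists of broad ATAC-seq peaks, each called on its own library. The submitters' processing notes name MACS2 2.1.1, bedtools 2.26.0, Bowtie2 2.3.2, Picard 2.9.2, Trimmomatic 0.36, SAMtools 1.3 and bcl2fastq 2.19, and the build mm10, without settings. Each peak in the authors' deposited lists has a display score, a fold over local background, a −log10 p and a −log10 q, used here only to filter or rank peaks within a library. Coordinates are the authors' deposited peak positions in mm10.

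Genes and start sites came from RefSeq tables of GRCm38.p6, whose primary chromosomes have mm10 coordinates. Covered bp per locus were scaled to the library's total, and log2(scaled bp + 500) was fitted in limma 3.58.1 (R 4.3.3, trended eBayes, 4 group means over 8 libraries), with p-values adjusted by the Benjamini-Hochberg method over all 27934 tested genes at 0.05. Fold changes on this scale understate changes of loci with little covered length. "Rose" and "fell" refer to that threshold. Regions are peaks of all libraries merged where they overlap, 141310 in all, and a region is held by a library when at least 1 bp overlaps. Group-specific regions were held by both libraries of a group and neither of the other. Named genes were members past the threshold, members with at least 3 group-specific regions, the 3 with the largest difference per comparison and direction, and 14 well-known members. The members, lists and tests were chosen with earlier results of these data known. Same-numbered replicates were not paired by the labels. Alternatives were another pseudocount, no scaling, quantile normalization, stricter peaks, equal list lengths, the gene body alone, no filter, a replicate block, fits on 4 libraries and leaving out each library.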

Additional observations from a re-analysis of the deposited data

How the results depend on the processing

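Peak lists hold no depth, so a missing peak limits every comparison. Members called in ASC against QSC, 10 as reported, numbered 5 without scaling, 6 with no filter on covered length, 3 in a fit on the 4 libraries, and 2 to 11 when 1 library was left out, of which 2 to 7 were among the 10. In control siRNA against ASC, 2 as reported, the number called was 0 without scaling, with the gene body alone or with no filter, 6 with stricter peaks (both of the 2 among them) or equal list lengths (1 of the 2 among them), 1 with the replicate block or the fit on 4 libraries, and 0 to 0 when 1 library was left out. In control siRNA against QSC, 12 as reported, 4 were called without scaling and 1 to 2 when 1 library was left out. In LncMyod siRNA against control siRNA, 0 as reported, 0 to 1 were called when 1 library was left out, the 1 without LncMyod siRNA replicate 1. With the replicate block the counts were 10, 1, 0 and 11 for ASC against QSC, control siRNA against ASC, LncMyod siRNA against control siRNA and control siRNA against QSC. Correlations of same-numbered deviations between groups ran from 0.008 to 0.096, so the numbers were not taken to pair the libraries.

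Regions specific to a group were 30 for ASC and 48 for QSC in ASC against QSC. They were 15 for ASC with stricter peaks, 32 to 55 for ASC and 52 to 75 for QSC when 1 library was left out. For control siRNA against ASC, 64 regions were control-specific, 37 with equal list lengths and 71 to 94 when 1 library was left out, and 19 were ASC-specific, 4 with stricter peaks and 20 to 37 when 1 library was left out. The LncMyod siRNA-specific 7 became 11 with 50% of the region covered, 0 with stricter peaks, 2 with equal list lengths and 8 to 57 when 1 library was left out. The 5 control-specific regions against LncMyod siRNA became 8, 3 and 6 to 44 with 50% of the region covered, stricter peaks and 1 library left out. Against QSC, 75 control-specific regions became 44 with equal list lengths and 48 QSC-specific became 24 with stricter peaks.

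Direction changed for Adam12 in control siRNA against QSC (0.071 with stricter peaks), Adam2 in LncMyod siRNA against control siRNA (−0.34 with stricter peaks, −0.11 with equal list lengths, and −0.068 to 1.282 when 1 library was left out, the lowest without LncMyod siRNA replicate 2), Adam3 in control siRNA against ASC (1.14 with stricter peaks, 0.23 with the gene body alone) and Mmp15 in LncMyod siRNA against control siRNA (0.23 with stricter peaks). The cause was not tested. Of the 37 named values 24 were called, and an uncalled value that stayed uncalled counts here as kept. Over the alternatives that kept every library, 250 fits of these values kept direction and side of the threshold. Another 67 kept direction and lost the call, all of them fits of the 24 called values, and 3 kept direction and gained it. The other 6 fits changed direction. Among these, both with stricter peaks, Adam12 also lost its call (limma adjusted p = 0.846). Adam3 in control siRNA against ASC passed the threshold upward (adjusted p = 0.0151). When 1 library was left out, only the Adam2 value given above changed direction. Calls lost in those fits are given with each gene above.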
